A study of Mus musculus with 5 samples.

Results

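The peaks of BRG1 in wild-type (WT) bone marrow-derived macrophages were compared between untreated cells and cells given oxidised low-density lipoprotein (oxLDL). The members are all peaks in the untreated WT list and in the oxLDL WT list, after peaks on chromosome 9 starting before 3.1 Mb were dropped. These are 208 untreated peaks and 9879 oxLDL peaks, or 10087 of the 14951 peaks in the 4 lists of the series. A peak was counted as shared where it overlapped a peak of the other list by at least 1 bp.

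The series mapped BRG1 in primary macrophages of mice by ChIP-seq, in which an antibody pulls down the protein with its DNA. It holds 1 BRG1 library each of WT cells, Baf60a knockout (KO) cells, WT cells with oxLDL and KO cells with oxLDL, and 1 input library, which was not analysed here. Both groups compared are WT cells that differ, per the labels, only in oxLDL. No oxLDL dose or treatment time, and no sex, age or number of mice, is stated in the sources used here. Each group is 1 library, so replicate spread is unknown and no test between the groups was run. A difference between lists is a difference between 2 libraries. All intervals on shares are Wilson 95% intervals that cover counting error only.

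BRG1, encoded by Smarca4, is an ATPase that drives SWI/SNF complexes, which slide and evict nucleosomes so that DNA can be reached by transcription factors. It has no strong sequence preference of its own and is brought to promoters and enhancers by other factors and by acetylated histones. In macrophages, SWI/SNF is known for its part in opening inflammatory genes. OxLDL is taken up through scavenger receptors and turns macrophages into lipid-laden foam cells, as in the wall of atherosclerotic arteries.

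Promoter sequences place some of these peaks on the DNA. The sequences below are the 250 bases upstream of a transcription start, from RefSeq on GRCm38.p6, the assembly of mm10. They belong to Il6ra, which holds the recurring untreated peak of highest fold enrichment with its summit in such a window, and to Tifa, Ifngr2 and Pla2g4a, named genes that lead the oxLDL-only peaks with a summit in the window or just past the start. Capitals mark any match, on either strand, to GAGGAA (the core bound by ETS factors such as PU.1), TGANTCA (AP-1), TCACGTG (an E-box of MiT/TFE and USF factors), GGGCGG (GC box), CCAAT (the element of NF-Y) or TGACGTC (CRE).
Il6ra, chr3:89913197-89913446, minus strand: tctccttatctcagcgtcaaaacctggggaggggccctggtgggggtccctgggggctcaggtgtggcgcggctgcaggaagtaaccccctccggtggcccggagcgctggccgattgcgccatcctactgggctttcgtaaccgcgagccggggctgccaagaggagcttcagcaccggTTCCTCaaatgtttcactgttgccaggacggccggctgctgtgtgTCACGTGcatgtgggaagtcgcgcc
Tifa, chr3:127790407-127790656, plus strand: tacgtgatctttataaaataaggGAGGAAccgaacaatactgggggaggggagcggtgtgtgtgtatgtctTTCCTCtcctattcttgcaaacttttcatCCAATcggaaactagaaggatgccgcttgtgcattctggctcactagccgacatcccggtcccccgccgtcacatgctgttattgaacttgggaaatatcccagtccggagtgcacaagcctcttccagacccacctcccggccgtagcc
Ifngr2, chr16:91546809-91547058, plus strand: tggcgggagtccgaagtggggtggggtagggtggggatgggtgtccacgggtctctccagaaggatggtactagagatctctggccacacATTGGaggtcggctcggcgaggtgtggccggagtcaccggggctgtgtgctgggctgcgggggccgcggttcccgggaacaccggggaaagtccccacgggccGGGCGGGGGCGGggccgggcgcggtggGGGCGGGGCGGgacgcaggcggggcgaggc
Pla2g4a, chr1:149961291-149961540, minus strand: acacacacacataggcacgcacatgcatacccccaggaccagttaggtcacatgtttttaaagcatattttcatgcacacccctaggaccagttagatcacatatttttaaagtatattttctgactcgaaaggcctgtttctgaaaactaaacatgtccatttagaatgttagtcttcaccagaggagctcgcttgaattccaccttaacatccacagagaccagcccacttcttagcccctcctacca
The untreated summit at Il6ra, the receptor subunit that binds interleukin 6, lay 199 bp upstream of the start. Its window holds both a GAGGAA and a TCACGTG match. The oxLDL-only summits lay 19 bp downstream of the start of Tifa, an adaptor upstream of NF-kB, 185 bp upstream of Ifngr2, the signalling chain of the interferon gamma receptor, and 232 bp upstream of Pla2g4a, the phospholipase that frees arachidonic acid. The Pla2g4a window holds none of the 6 motifs, and the Ifngr2 window holds a run of GC boxes near the start. A match is only a string of letters and does not show that a factor binds there.

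An untreated peak usually had an oxLDL counterpart, and an oxLDL peak seldom had an untreated one. Of the 208 untreated peaks, 152 were overlapped (73.1%, interval 66.7 to 78.6). They met 151 of the 9879 oxLDL peaks (1.53%), which leaves 9728 oxLDL-only peaks (98.5%). All oxLDL peaks together cover 4.64 Mb, or 0.193% of the 2403 Mb span of chromosomes 1 to 19. With an overlap of at least 50% of both peaks, 31.3% of the untreated peaks recurred, and with −log10 q of at least 5 in both lists 21 of 40 did.

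Some peaks in both lists stood on high background, meaning that the local level was more than 5 times the lowest in the same list. There were 22 of them in the untreated list (10.6%) and 30 in the oxLDL list (0.304%). Of the 22, 11 recurred (50%), and of the other 186 untreated peaks 141 recurred (75.8%, 69.2 to 81.4). The 11 include sites near Lrrc4c, Gm2244 and Tcte2 with pileups from 61 to 26692 fragments, and 1 of the 11 was wider with oxLDL. The pileup is the number of fragments stacked at the summit, recovered from the deposited fold enrichment and p-value. From here on, values on recurring sites are for the 141 outside high background.

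The libraries differed in general level. The lowest local background, which follows the number and length of fragments, was 2.70 fragments in the untreated list and 3.76 in the oxLDL list. The lowest pileup of a called peak was 12 in both, and the lowest −log10 p was 5.13 against 3.67. Scaled by the ratio of the lowest backgrounds (0.718), 5949 of the 9709 oxLDL-only peaks outside high background (61.3%) reached at least the 12 fragments of the lowest untreated peak. Only 76 (0.783%) reached at least 2 times that height. How much of the difference in list length depth accounts for was not tested.

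Recurring untreated peaks had a larger share at gene ends than gene ends have of the chromosome length. Of the 141 summits, 39 (27.7%, 20.9 to 35.6) were at most 1 kb from the start or the end of a protein-coding gene, a class called gene end. A further 65 (46.1%) were inside a gene, 21 (14.9%) up to 20 kb from one and 16 (11.3%) farther off. Gene ends make up 3.1% of the span, the inside of genes 39.2%, ground up to 20 kb away 13.9% and ground beyond 20 kb 43.8%. The shares of the span in the 2 middle classes lie within the intervals of the recurring peaks. The 45 untreated peaks that did not recur were at gene ends in 17.8% and beyond 20 kb in 22.2%, and their intervals overlap those of the recurring peaks. The 9709 oxLDL-only summits were at gene ends in 32.5% (31.6 to 33.4), inside genes in 41.9% and beyond 20 kb in 11.3%. Their gene-end interval overlaps that of the recurring peaks. With −log10 q of at least 5 in both lists, none of the 21 recurring peaks was at a gene end, and 29.9% of the oxLDL-only peaks were. The gene table gives no exons, so exon and intron cannot be told apart.

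**Figure D1:**
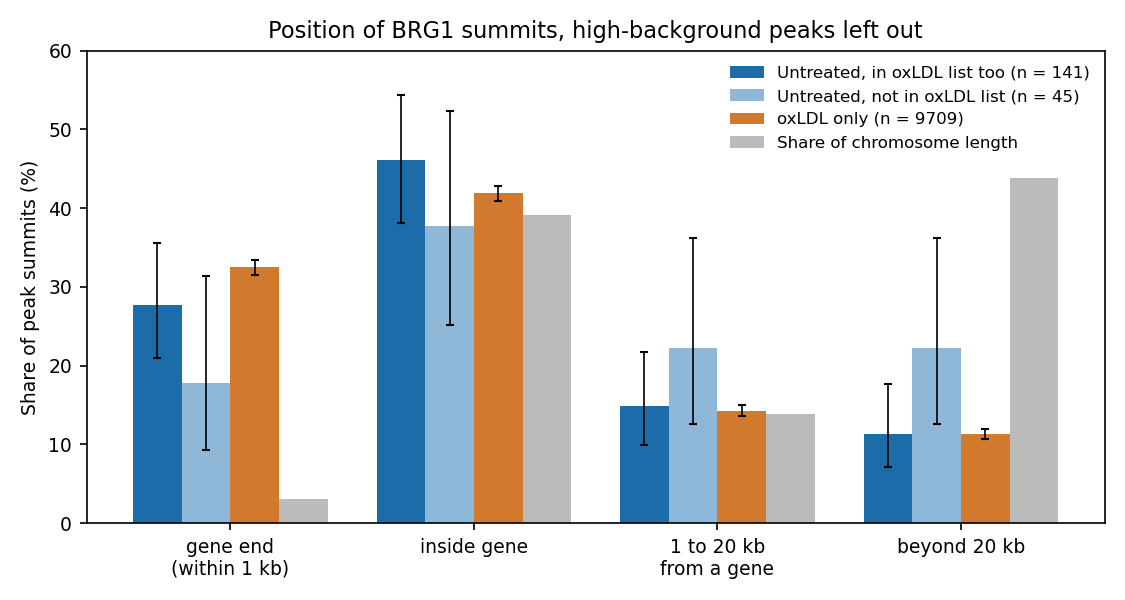
Share of BRG1 summits (%) in each position class, for untreated peaks that recur with oxLDL (n = 141), untreated peaks that do not (n = 45) and oxLDL-only peaks (n = 9709), with Wilson 95% intervals, beside the share of chromosome length. Gene ends hold 27.7%, 17.8% and 32.5% of the summits and 3.1% of the length, and ground beyond 20 kb holds 43.8% of the length and 11.3%, 22.2% and 11.3% of the summits.

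Recurrence by class ran from 39 of 47 gene-end peaks (83.0%) and 65 of 82 peaks inside genes (79.3%) to 21 of 31 up to 20 kb away (67.7%) and 16 of 26 beyond (61.5%). These intervals all overlap. Untreated peaks at or above the median fold enrichment of their list recurred in 80 of 94 cases (85.1%, 76.5 to 90.9) and those below it in 61 of 92 (66.3%, 56.2 to 75.1). The fold enrichment of a peak compares its pileup with the local background. It is the authors' value and serves here only as a description and a rank within 1 list.

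Where strand is known, most gene-end peaks sat at transcription starts and few at 3′ ends alone. Of the 39 recurring gene-end summits, 32 were at a start alone, 1 was near both kinds of end, none was at a 3′ end alone and 6 had no strand on file. Of the 3154 oxLDL-only gene-end summits, 2400 were at a start alone and 117 (3.71% of all 3154) at a 3′ end alone. A further 74 were near both kinds of end and 563 had no strand on file. Chromosome 18 has no listed start, so its summits have no strand here and are absent from the counts by distance that follow. Most summits near a start lay downstream of it. Of the 3195 oxLDL-only summits placed within 1 kb of a listed start, 2384 (74.6%) lay downstream and 1824 (57.1%) in the first 500 bp after it. Of the 47 recurring untreated summits so placed, 36 (76.6%) lay downstream. Summits of the oxLDL KO list had 80.8% downstream.

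**Figure D2:**
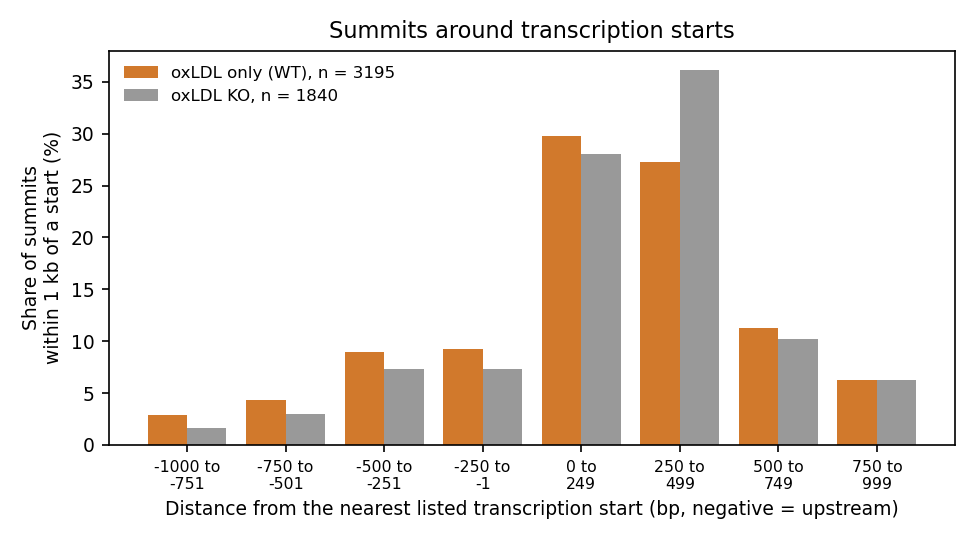
Share (%) of summits within 1 kb of the nearest listed transcription start by distance from it in bp (negative is upstream), for oxLDL-only WT peaks (n = 3195) and oxLDL KO peaks (n = 1840). Both lists are highest in the first 500 bp downstream, with 57.1% and 64.3% of the summits, and lowest at the upstream edge.

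The recurring peak with the highest untreated fold enrichment (6.76, 24 fragments, exact Poisson 95% interval 15.4 to 35.7) lay inside Synpr, which encodes the synaptic vesicle protein synaptoporin. With oxLDL it had 83 fragments (66.1 to 102.9), a fold enrichment of 17.6, the highest of all oxLDL WT peaks, and 813 bp in place of 221 bp. The second, 11994 bp from Ifnar1, a subunit of the type I interferon receptor, had 23 fragments untreated and 69 with oxLDL and went from 222 to 1215 bp. Both were also called in oxLDL KO cells, at fold enrichments of 6.79 and 11.3. Inside Rab14, a GTPase of endosome traffic, the pileup was 22 untreated and 42 with oxLDL, and the width 266 and 736 bp. Other strong untreated sites had fewer fragments with oxLDL, with overlapping Poisson intervals. A chromosome 2 site with no gene within 100 kb had 23 fragments untreated and 15 with oxLDL, and the site at Rab1a, a GTPase of ER to Golgi traffic, had 21 and 14. Divided by the lowest background of each list, these heights had ratios of 0.468 and 0.478, oxLDL over untreated.

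The 30 recurring sites of highest untreated fold enrichment also lay in or near Map3k8 (28131 bp away; the kinase Tpl2, which acts below Toll-like receptors), Fosb (6870 bp away; an AP-1 subunit), Ptpn22 (a phosphatase of immune receptor signalling), Ncf4 (a subunit of the phagocyte NADPH oxidase), Sh3bp2 (an adaptor of immune cell signalling), Plxnc1 (a semaphorin receptor), Capn2 (a calpain protease) and Il6ra. At Ptpn22 the peak was 336 bp untreated and 1472 bp with oxLDL, and at Ncf4 it was 231 and 781 bp. A gene name gives a position only, and whether the peak acts on that gene was not measured.

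Several genes held a pair of recurring peaks. Inside Sh2b3, an adaptor that dampens cytokine signalling, the 2 sites measured 626 and 228 bp untreated and 2147 and 1087 bp with oxLDL. Pairs also lay in or near Cdk6, Pxn, Gna15, Dpysl2 and Zfp36l2. At Cables2, untreated peaks of 229 and 233 bp were spanned by 1 oxLDL peak, chr2:180272951-180274135, of 1185 bp and fold enrichment 10.3. It was the only oxLDL peak that covered more than 1 untreated peak. Recurring peaks at Bcl2a1d and Bcl2a1b, near-identical gene copies, cannot be assigned with certainty, since reads of the copies may be split between them. Genes outside the ranked lists, such as these pairs and the genes of the next sentence, were chosen after their values were seen. The untreated and oxLDL widths were 356 and 1731 bp at Cd47, the signal that restrains phagocytosis, 293 and 1306 bp at Ptprj, a receptor phosphatase, 275 and 1019 bp at the adaptor Grb2, 243 and 946 bp at H2-DMb2, which loads antigen peptides, and 226 and 885 bp at Plaur, the urokinase receptor.

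Sites called in both libraries were broader with oxLDL almost throughout. Their median width was 255 bp untreated (213 to 648) and 648 bp with oxLDL (236 to 2147). The oxLDL peak was wider at 131 of the 141 sites (92.9%), at least 2 times as wide at 77 (54.6%) and at least 4 times as wide at 27 (19.1%). The median ratio of widths was 2.21, with quartiles of 1.43 and 3.57, and over all 152 sites it was 2.03. It was 1.27 over the 65 of these 152 where the overlap covered at least 50% of both peaks, a rule that leaves out the sites that differ most in width. By class the median ratio was 2.14 at gene ends, 2.41 inside genes, 1.76 up to 20 kb away and 1.83 beyond.

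The added length was 344 bp in the median (from 140 bp lost to 1715 bp gained). The oxLDL peak reached farther on both sides at 91 sites (64.5%), and it held the whole untreated peak at 94 (66.7%) and the untreated summit at 128 (90.8%). Summits moved by a median of 112 bp and by over 500 bp at 15 sites. No recurring untreated peak was 1 kb or wider, and the oxLDL peak was at 32 sites. Across the 141 sites, which all come from the same 2 libraries, Spearman's rho between untreated and oxLDL width was 0.03. The 41 sites whose untreated width was within 10% of the smallest in the list had a median ratio of 3, and the other 100 had 1.97.

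**Figure D3:**
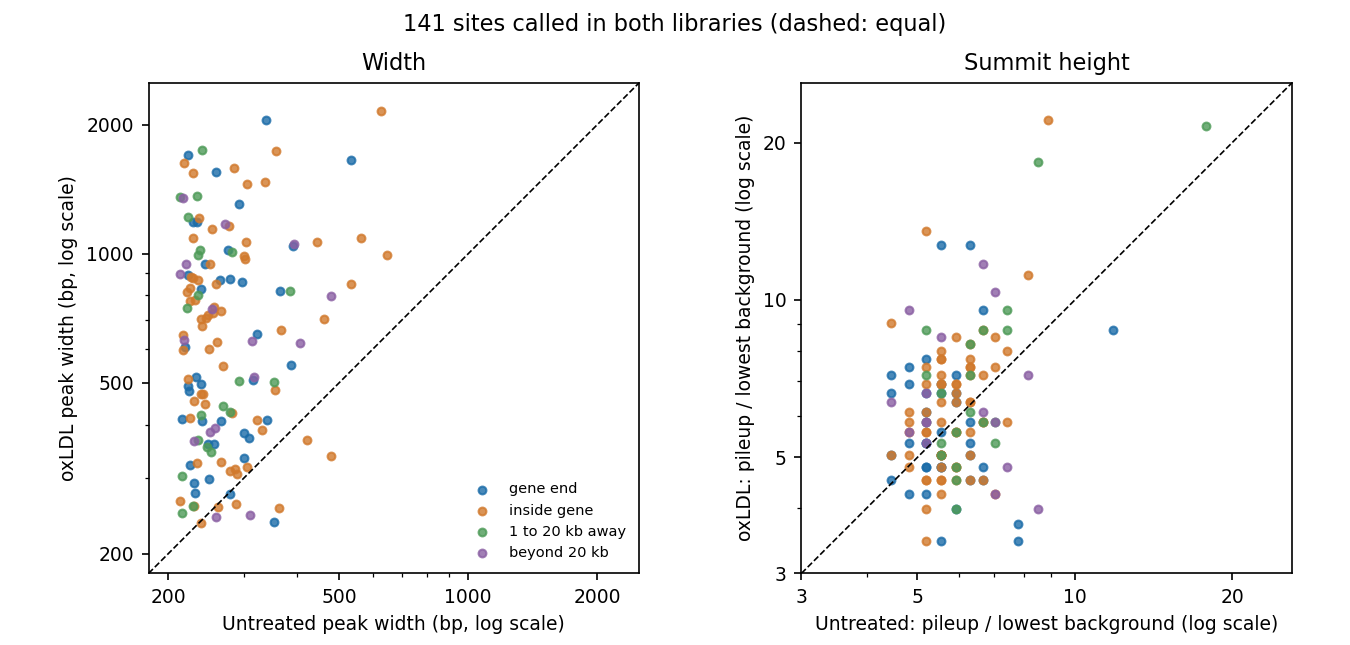
Untreated against oxLDL values at the 141 recurring sites on log axes, with peak width in bp on the left and the summit pileup over the lowest background of its own list on the right; colours give the position class and the dashed line is equality. In width 131 sites lie above the line, and in height 81 do.

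Summit height differed less than width. The median pileup was 15 fragments untreated (12 to 48) and 22 with oxLDL (13 to 83). Over the lowest background of each list, the medians were 5.56 and 5.85. The ratio of these scaled heights, oxLDL over untreated, had a median of 1.08 (0.444 to 2.61), was above 1 at 81 of 141 sites, at least 1.5 at 12 and at most 0.67 at 8. Before scaling, the Poisson interval of the oxLDL pileup lay wholly above that of the untreated pileup at 9 sites and wholly below it at none.

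Those 9 sites were at or near Synpr, Ifnar1, Nrp2, Kctd12, Mgat1, Tmco5 and Speer4c, with the pair at Cables2. The Tmco5 site lay 97349 bp from that gene, and the Kctd12 site was also beyond 20 kb. Nrp2, the neuropilin co-receptor for semaphorins and VEGF, had the largest scaled ratio, 2.61, with 14 fragments untreated (7.65 to 23.5) and 51 with oxLDL (38.0 to 67.1). Its width was 229 bp untreated and 1542 bp with oxLDL, and in oxLDL KO cells it was 232 bp at a fold enrichment of 3.62. At Mgat1, a Golgi enzyme of N-glycan synthesis, the pileup was 12 untreated and 34 with oxLDL. At 2510009E07Rik it was 21 untreated and 13 with oxLDL, the smallest scaled ratio (0.444).

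The largest ratio of widths, 7.61, was at the neighbouring starts of Anxa9 and Cers2, a ceramide synthase, with 223 bp untreated and 1698 bp with oxLDL. Inside Tfeb, the master regulator of lysosome genes, the width was 218 and 1625 bp and the pileup 15 and 29 fragments. Near Junb, an AP-1 subunit gene 3677 bp away, the width was 213 and 1354 bp and the pileup 14 and 33. At Il6ra the width was 338 and 2053 bp and the pileup 18 and 36, and nearly all of the added length, 1719 bp, was on the side of lower coordinates, into the gene from the upstream window printed above. The other members of the 10 largest ratios were at or near Gm46353 (7.28), Nrp2 (6.73), Map3k8 (6.24), the galactosyltransferase gene B4galt1 (5.99), 5031439G07Rik (5.85) and Foxo3 (5.58). The Foxo3 peaks overlapped by 9 bp, the smallest overlap of any recurring site, so its ratio compares neighbouring peaks rather than 1 summit.

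**Figure D4:**
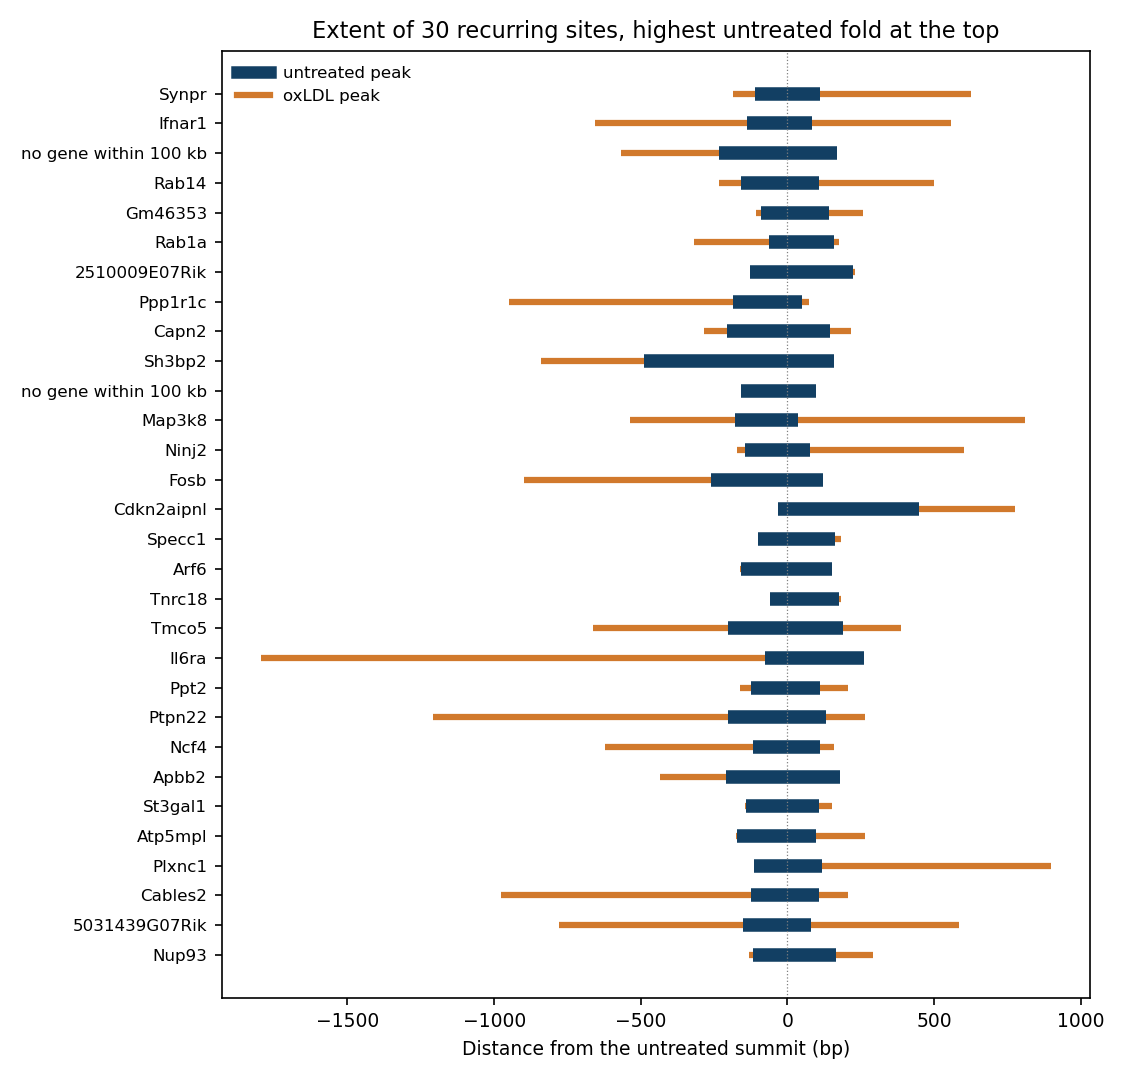
Extent of the untreated peak (dark) and the oxLDL peak (orange) in bp from the untreated summit, at the 30 recurring sites of highest untreated fold enrichment. At Il6ra the oxLDL peak adds 1719 bp on 1 side, at Synpr and Ifnar1 it adds on both sides, and at 2510009E07Rik, Arf6, Specc1, Tnrc18 and the lower of the sites with no gene within 100 kb it is no wider than the untreated peak.

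At 10 sites the oxLDL peak was narrower, and the lowest ratios were 0.671 at 2510009E07Rik, 0.704 at Cd93, a lectin-like surface receptor, 0.707 at the transcription factor gene Nfatc2, 0.794 at a site 71768 bp from Arf6 and 0.874 at Zmiz1, a transcriptional coregulator. At Cd93 the width was 362 bp untreated and 255 bp with oxLDL, with 18 and 17 fragments.

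Wide peaks overlap more easily, so the widths of the other peaks stand beside these. Untreated peaks that did not recur had a median width of 251 bp, close to the 255 bp of those that did. Peaks found only with oxLDL had a median of 366 bp (235 to 3147). Of the oxLDL peaks at recurring sites, 85 of 140 (60.7%, 52.4 to 68.4) were at least 500 bp wide, against 2940 of 9728 oxLDL-only peaks (30.2%, 29.3 to 31.1). Within its own list, the oxLDL peak at a recurring site stood at a median percentile of 84.9 by fold enrichment and 81.5 by width. Sites were chosen by a call in the untreated list, and the part of the lower p limit of the oxLDL list in these widths was not tested.

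Untreated sites were frequent at the top of the oxLDL list. Of the 12 oxLDL peaks with the highest fold enrichment outside high background, the last 3 of which tie at 9.03, 6 had an untreated counterpart. They lay at or near Synpr (17.6), Ifnar1 (14.7), Nrp2 (10.9), Cables2 (10.3), Tmco5 (9.45) and Rab14 (9.03). Of the top 20, 7 did (35%), of the top 100, 17, of the top 1000, 60 (6%), and of all 9849, 140 (1.42%).

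Untreated sites were also seen in the lists that this comparison did not use. After the same chromosome 9 rule, the oxLDL KO list holds 4639 peaks and the untreated KO list 111. Of the 141 recurring peaks, 98 (69.5%, 61.5 to 76.5) were in the oxLDL KO list, against 7 of the 45 that did not recur (15.6%, 7.75 to 28.8) and 2567 of the 9728 oxLDL-only peaks (26.4%, 25.5 to 27.3). At these 98 sites the median width was 250.5 bp untreated, 371.5 bp in oxLDL KO cells and 716.5 bp in oxLDL WT cells. The oxLDL KO peak was wider than the untreated WT peak at 83 of the 98 sites, and the oxLDL WT peak was wider than the oxLDL KO peak at 78. In the untreated KO list were 6 of the 141 (4.26%), at or near Apbb2, Ptpn22, Tmco5, Bcl2a1d, Fnip1 and Speer4c. That list holds fewer peaks than the 141 sites, so this share cannot be set directly against the 69.5%.

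The untreated peak with the highest fold enrichment of all, 7.30 with 26 fragments, did not recur. It lay at chr6:41805254-41805583, 33021 bp from Olfr459, and was in no other list. Other non-recurring peaks of high fold enrichment were at or near Cttnbp2nl (5.13), Tox2 (4.86), Soga1 (4.85), a site with no gene within 100 kb (4.67), Mapkapk2 (4.59), Ubash3b (4.58), Itga6 (4.50) and Gm51573 (4.40). Mapkapk2 encodes the kinase that stabilises inflammatory mRNAs. Loss of an overlap was sometimes a matter of a short distance. The gap to the nearest oxLDL peak was 89 bp at the site nearest to Trib1 and 136 bp at Dhrs3. An oxLDL peak lay within 500 bp of 12 of the 45 and within 5 kb of 20.

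Most recurring sites had a new oxLDL peak nearby, although few of the new peaks lay near a recurring site. Of the 141 recurring sites, 103 (73.0%) had at least 1 oxLDL-only summit within 20 kb, and 134 (95%) within 100 kb. These 2 shares were not computed for other sites, so they have nothing to be read against. The nearest such summit was 400 bp away at Rtn4 and 434 bp away at Il21r. Whether such close neighbours are parts of 1 enriched region was not tested. The largest number within 20 kb was 13, at Zmiz1, followed by 7 at each of the neighbouring pair near Zfp36l2, an mRNA decay factor, and 6 at Junb, Sh3bp2 and Gm9949. Of all oxLDL-only summits, 217 (2.24%) lay within 20 kb of a recurring site, where 0.223% of the span lies, and 541 (5.57%) within 100 kb, where 1.09% lies. Both kinds of peak favour genes, which these shares of the span do not account for.

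Genes with new gene-end peaks were many. In the untreated list, 54 of the 21883 protein-coding genes (0.247%) had a gene-end peak, and in the oxLDL list 3259 (14.9%) did. A gene-end peak with oxLDL and no untreated peak at an end or inside was found at 3182 genes (14.5%), the share against which the gene lists below are read. With −log10 q of at least 5 it was 803 genes. In oxLDL KO cells, 1255 of the 3182 (39.4%) had a gene-end peak too. Counting peaks inside genes too, 136 genes (0.621%) had one in untreated cells, 4736 (21.6%) with oxLDL and 124 (0.567%) in both lists. Of the 54 genes with an untreated gene-end peak, 44 also had an oxLDL one, or 0.201% of all genes.

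Macrophage lineage genes were covered most densely. Of 27, 23 (85.2%) had a new gene-end peak and none had an untreated peak. They include Fcer1g (fold enrichment 5.25), the shared signalling chain of Fc receptors, Spi1 (5.02), which encodes the lineage transcription factor PU.1, Zeb2 (4.83), Trem2 (4.83), a lipid-sensing receptor, and Coro1a (4.81). Gene-end peaks were also present at the identity markers Csf1r (3.57), Cd68 (3.99), Adgre1 (3.30) and Mertk (4.41). The 4 without were Cx3cr1, Marco, Cd14 and Fcgr3. Among 119 markers of 6 other tissues or cell types, some of them blood lineages, 4 (3.36%) had a new gene-end peak. These were Tal1 (6.71) and Pf4 (3.96) of the erythroid and megakaryocyte list, Mmp8 (2.94) of neutrophils and Cd4 (2.46) of lymphocytes. The hepatocyte, neuron and stromal lists, 20 genes each, had none. Counting peaks inside genes too, 24 of the 27 macrophage lineage genes had an oxLDL peak. So did 3 of 20 neutrophil, 3 of 20 lymphocyte, 2 of 19 erythroid and megakaryocyte and 1 of 20 stromal genes, and no hepatocyte or neuron gene. In bulk chromatin, fewer cells with a peak and less binding per cell cannot be told apart.

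**Figure D5:**
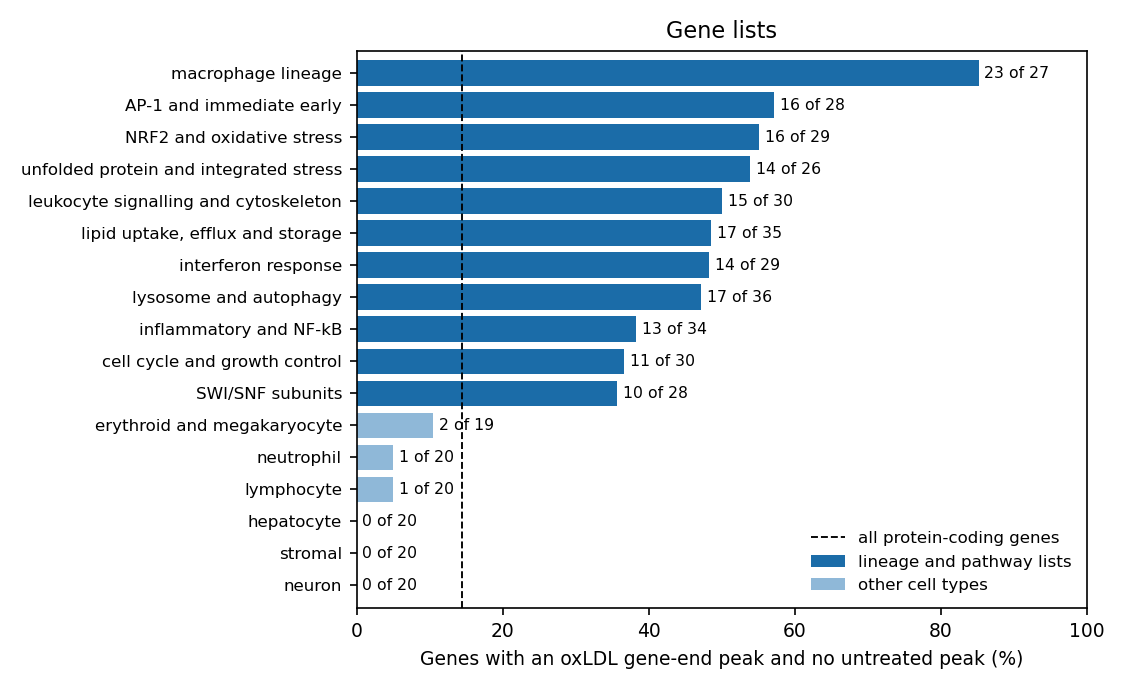
Share (%) of the genes of each list with an oxLDL gene-end peak and no untreated peak, with the counts printed beside the bars; the dashed line is the share of all protein-coding genes, 14.5%. The 11 lineage and pathway lists lie between 35.7% and 85.2%, and the 6 lists of other cell types between 0% and 10.5%.

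In the list of lipid uptake, efflux and storage, 17 of 35 genes (48.6%) had a new gene-end peak, with a median fold enrichment of 3.37. They include Scap (5.25), a sterol sensor, Plin2 (5.25), which coats lipid droplets, the HDL receptor Scarb1 (4.62), Npc2 (4.20), which moves cholesterol out of lysosomes, and the exporter Abcg1 (3.99). The scavenger receptor Msr1 had one too (3.26). Cd36, another oxLDL receptor, had a peak inside the gene (5.25) and none at its ends. Abca1, Apoe and Olr1 had no oxLDL WT peak at an end or inside. In oxLDL KO cells, Abca1 had peaks at an end (2.83) and inside (4.98), and Apoe and Olr1 had none.

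Among NRF2 and oxidative stress genes, 16 of 29 (55.2%) had a new gene-end peak, led by Osgin1 (4.83), Nfe2l2 (4.62), which encodes NRF2 itself, and Gclm (4.59), a subunit of the enzyme that limits glutathione synthesis. The peroxide-reducing Prdx1 (4.20), Prdx6 (3.99) and Gpx1 (3.78) followed. The well-known NRF2 targets Hmox1 and Nqo1 had no oxLDL peak at an end or inside. In the list of the unfolded protein response and integrated stress response, 14 of 26 (53.8%) had one, including Herpud1 (4.83) and Sel1l (4.62) of ER-associated degradation, the sensor gene Ern1 (4.62) and its target Xbp1 (4.41), Atf3 (4.20) and Pdia3 (4.20).

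In the AP-1 and immediate early list, 16 of 28 (57.1%) had a new gene-end peak, with Klf4 (4.84), Jun (4.79), Fosl2 (4.49), Ier3 (4.41), Atf3 and Btg2 (4.20) highest. Ier5 was the only gene of the list with an untreated peak inside or at an end (3.78), and that peak did not recur, although a new one at the gene's end had 3.78 with oxLDL. The Junb and Fosb sites described above lie outside the genes, and Junb was among the genes with a new gene-end peak as well (3.78). In the inflammatory and NF-kB list, 13 of 34 (38.2%) had one, among them Tlr4 (5.56), the lipopolysaccharide receptor, Relb (4.83), Nfkbia (4.06), the inhibitor of NF-kB, Myd88 (3.99), the adaptor of Toll-like receptors, and Tlr9 (3.78). Il1b had a gene-end peak (3.78), and Tnf and Nlrp3 had peaks inside the gene alone (3.36 and 6.28).

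In the interferon list, 14 of 29 (48.3%) had a new gene-end peak, led by Ifngr2 (6.71), Irf5 (4.62) and Ifnar2 (4.6), with Tap1 and Psmb9, which share a start region, at 4.20. Counting peaks inside genes too, the number stayed at 14. The genes with no oxLDL WT peak at an end or inside were Isg15, Isg20, Ifit1, Ifit2, Ifit3, Ddx58, Oas1a, Rsad2, Gbp2, Usp18, Irf1, Irf3, Irf7, Irf9 and Stat2. The lysosome and autophagy list had 17 of 36 (47.2%), with the protease genes Ctsz (6.09), Ctsl (4.44) and Ctsd, the proton pump subunit Atp6v0a1 (5.88), and Hexa (4.20). Tfeb and Fnip1 of this list had untreated peaks, both recurring. The leukocyte signalling and cytoskeleton list had 15 of 30 (50%), with Plcg2 (7.34), Rac2 (5.88), Itga4 (5.04) and Itgb2 (4.41). The cell cycle list had 11 of 30 (36.7%), with the inhibitors Cdkn2d (5.67) and Cdkn1b (4.41), and Cdk6 held an untreated pair.

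SWI/SNF subunit genes themselves were marked in 10 of 28 cases (35.7%), with Bicra (5.25), Dpf2 (5.04), Actb (4.39), Phf10 (3.57), Arid2 (3.41), Bicral (3.36) and Smarca4 (3.19). No peak was called at Smarcd1, which encodes BAF60a. All 11 lists together had new gene-end peaks at 165 of 331 genes (49.8%) and untreated peaks at 4, namely Ier5, Tfeb, Fnip1 and Cdk6.

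The strongest oxLDL-only peaks lay inside Lcp1 (fold enrichment 10.7, 50 fragments, 1413 bp), which encodes the leukocyte actin bundler L-plastin, and inside Cerk (10.3, 48 fragments, 1758 bp), ceramide kinase. The Cerk peak was also in both KO lists, and Cerk held a recurring untreated site, 305 bp untreated and 1455 bp with oxLDL. Next were sites 80798 bp from Tomm20 (9.38), 3368 bp from Dnajc15 (9.24), inside Slc15a4 (9.03), a lysosomal transporter, and 7309 bp from Mmp12 (9.03), the macrophage elastase. Gene-end sites among the 20 strongest were those of Ptpn18 (8.82), the tyrosine kinase gene Fes (8.79, 1843 bp) and Mthfd1 (8.61), an enzyme of folate metabolism. A peak inside Cpt1a (8.55), which brings fatty acids into mitochondria, one inside both Tg and Sla (8.82), and peaks at F830045P16Rik (8.61), Raet1e (8.25) and Klf13 (8.19) were also among them, as were sites nearest to Ptchd3 (8.40) and Psma1 (7.98). All these are in the oxLDL KO list. The remaining members of the 20, at or near Rmnd5b (8.64), Rab20 (8.19), Tmcc2 (8.19) and Prkcq (7.98), are not. Over the whole list the share also in oxLDL KO cells was 14.3% in the lowest quintile of fold enrichment and 45.7% in the highest.

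The widest oxLDL-only peak, 3147 bp, lay inside Map3k14, the NF-kB-inducing kinase of the non-canonical pathway. The peak at Irgm1, an interferon-induced GTPase, followed with 2741 bp and a summit 282 bp from a listed start of the gene. The others of the 10 widest were at Gm20346 (2465 bp), Hmga2 (2448), Gm46294 (2396), the glucose transporter gene Slc2a1 (2359), 2900026A02Rik (2167), Ptk2b (2157), Spop (2144) and Tob2 (2115). Among oxLDL-only peaks, 506 of 9728 (5.20%) were 1 kb or wider.

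New summits were crowded in some loci. Counting each gene with 20 kb on either side, 508 genes (2.32%) had at least 5 oxLDL-only summits and 24 (0.110%) at least 10. Zmiz1 had 16, or 6.43 per 100 kb, Vps13d 14 and Plekho2 and Tspan14 13 each. Foxp1, Mgat4b and Nek6 had 12 each, and Dock10, Rin2 and Sgms1 11 each. Long genes gather more summits, so density differs: Foxp1, a transcription factor gene of 597 kb, had 1.88 per 100 kb, and Mgat4b, of 9.77 kb, had 24.1. The neighbour of Mgat4b, Sqstm1, which encodes the autophagy receptor p62, had 11, in a window that overlaps that of Mgat4b. Tyrobp, the DAP12 signalling adaptor, had 10 although the gene is 3.80 kb long.

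Promoter windows were searched for the 6 motifs. Of 32817 windows in the RefSeq table, 425 (1.30%) held an oxLDL-only summit. GGGCGG was in 59.8% of these and in 32.7% of all windows, CCAAT in 18.1% against 33.8%, GAGGAA in 27.5% against 23.3%, TGANTCA in 5.65% against 6.75%, TCACGTG in 1.88% against 3.13% and TGACGTC in 4.47% against 2.78%. The median GC content was 69.2% in the 425 windows and 52.4% in all. Among windows of at least 60% GC, GGGCGG was in 71.6% of the 324 with a summit and 76.5% of all 9171, GAGGAA in 20.7% and 20.3%, CCAAT in 17.0% and 28.7%, TGANTCA in 3.70% and 2.86%, TCACGTG in 2.16% and 5.07%, and TGACGTC in 4.63% and 4.84%. The order of the 2 shares for the GC box, AP-1 and CRE motifs thus turned with the restriction on GC.

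Some oxLDL-only summits lay at microRNA genes: 40 of 1005 hairpins (3.98%) had one within 1 kb. The let-7i and miR-142 genes are shown because their summits fell on or next to the hairpin and outside protein-coding genes. Mature sequences from RefSeq are given with the seed, bases 2 to 8, in capitals.
mmu-let-7i-5p: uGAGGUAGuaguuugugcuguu
mmu-miR-142a-5p: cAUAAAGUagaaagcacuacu
mmu-miR-142a-3p: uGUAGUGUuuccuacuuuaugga
The let-7i hairpin, chr10:122985640-122985724 on the minus strand, held the summit of a 575 bp peak (fold enrichment 3.55, 19 fragments) that was also called in oxLDL KO cells. The miR-142 hairpin, chr11:87756864-87756927 on the plus strand, had a summit 3 bp away (3.15, 14 fragments) that was not. MiR-142 is abundant in blood cells. Both peaks are in the lower part of the oxLDL list, whose median fold enrichment was 3.75, and neither gene had an untreated peak at that site. These genes were chosen after the list of 40 had been seen.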

How the data were processed

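BRG1 ChIP-seq of WT macrophages with and without oxLDL was analysed, with both KO lists beside it. Chromatin was cut enzymatically, and libraries were read as paired ends, per the labels' protocols. The submitters' processing notes name Trimmomatic 0.33, Bowtie2, MACS3 and mm10, without parameters. The sources used here do not say whether the input served as control. The authors deposited 1 peak list per library, with a score, a fold enrichment (a ratio to local background), −log10 p, −log10 q and the summit offset for each peak. Peak pileups were recovered from fold and p with a pseudocount of 1, and were whole numbers within 0.02 for 97.9% of untreated and 99.9% of oxLDL peaks. Read totals are unknown. Per list, the chromosome 9 rule dropped 29 untreated and 28 oxLDL peaks.

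Summits were placed on 21883 protein-coding RefSeq genes (GRCm38.p6), of which 79.9% have strand. Genes of chromosome 18 have neither strand nor listed starts. Overlaps and Wilson intervals were computed with Python 3.11.15 and scipy 1.17.1, and the overlap step was tested on simulated peaks. A peak is named by a gene with an end within 1 kb, else the gene holding it, else the nearest end within 100 kb. Named were the 30 recurring peaks and 10 non-recurring ones of highest untreated fold, the 10 largest and 5 smallest width ratios, the 20 strongest and 10 widest oxLDL-only peaks, the 10 genes with most summits and up to 6 genes per list; other names were chosen after their values were seen. The members, gene lists and rules were chosen with earlier results of these data known. Of the listed symbols, 1 (Ahsp) had no match. Some named genes are not reported here. Alternatives changed overlap, q limit, window and background filters.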

Additional observations from a re-analysis of the deposited data

How the results depend on the processing

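The share of untreated peaks that recur was 73.1% and lay between 70.7% and 75.9% with all deposited peaks, without high-background peaks, with −log10 q of at least 2 or with a common p limit. It was 65.9% with an overlap of 50% of the untreated peak, 31.3% with 50% of both peaks, 53.4% with summits within 200 bp and 52.5% with −log10 q of at least 5. The gene-end share of recurring peaks, 25.7% of 152, was 34.9% with a 2 kb window and 0% of 21 at that q limit. The gene-end share of oxLDL-only peaks, 32.4%, was 29.9% at that q limit, 22.5% with a 500 bp window and 41.8% with 2 kb. The 3182 genes with a new gene-end peak became 803 at that q limit, and 2283 to 4612 under the other settings. An alternative chosen after seeing the data, that q limit without high-background peaks, gave 54.2% of 24 recurring, 0% of 13 at gene ends, 30.004% of oxLDL-only peaks and 803 genes. The median width ratio was 2.03 and between 1.27 and 2.21 in all settings run. The cause of these shifts was not tested, apart from fewer peaks at the stricter limit. No paired analysis was possible because each group has 1 library, and for the same reason no library could be left out. Read depth is unknown, so sites missing from the untreated list may lie under its limit of detection.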
